A study of Homo sapiens with 12 samples.

Results

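The enzymes opposing H3K27 methylation were taken as 10 genes chosen by symbol: the H3K27 demethylases KDM6A and KDM6B, the H3K4 methyltransferases KMT2A, KMT2C and KMT2D, the H3K36 methyltransferases NSD1, WHSC1 and SETD2, and the H3K27 acetyltransferases CREBBP and EP300. All 10 were among the 14438 genes of the count table, and all 10 were among the 14263 genes tested. RNA-Seq was carried out on HEK293T, an established line from human embryonic kidney, in 4 derived lines with 3 libraries each. Each line carried an EZH2 gene delivered by lentivirus: EZH2 WT, the gain-of-function (GOF) mutants EZH2 Y641F and EZH2 A677G, or the loss-of-function (LOF) double mutant EZH2 H689A/F667I. All 4 lines, the EZH2 WT line that served as control included, kept their own EZH2 and were selected with blasticidin. The selection was meant to leave monoclonal populations. A line may therefore be 1 clone, and the EZH2 mutation and the line cannot be told apart. The labels do not say whether the libraries of a line came from separate cultures, and p-values may measure only the spread between these libraries. The lines are called WT, Y641F, A677G and LOF mutant here, and Y641F and A677G together GOF mutants.

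EZH2 is the catalytic subunit of PRC2, which adds methyl groups to lysine 27 of histone H3, and the trimethylated form, H3K27me3, marks repressed genes. The 10 enzymes act against this mark in different ways. KDM6A (UTX) and KDM6B (JMJD3) remove methyl groups from H3K27, and KDM6A is a subunit of the complexes built around KMT2C and KMT2D. KMT2A (MLL1) methylates H3K4 at promoters, while KMT2C (MLL3) and KMT2D (MLL4) place monomethylated H3K4 at enhancers. NSD1 and WHSC1 (NSD2) make H3K36me2 and SETD2 makes H3K36me3, and histone tails methylated at H3K36 are poor substrates of PRC2. CREBBP (CBP) and EP300 (p300) acetylate H3K27, and a lysine that is acetylated cannot be methylated.

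For 9 of the 10 enzymes, all but KDM6B, the 95% intervals in the 3 mutants lay between 0.828 and 1.145 times the WT level. None of the 10 passed the test in Y641F against WT, where 7.68% of all genes tested passed, or in A677G, where 8.55% passed, or in the LOF mutant, where 0.301% passed (edgeR's quasi-likelihood test, Benjamini-Hochberg adjusted p under 0.05 over all genes tested). The count of members passing was also 0 by edgeR's exact test, by DESeq2 and by limma voom. At an unadjusted p under 0.05 there were 0 members in Y641F (19.2% of all genes), 2 in A677G (20.4%) and 2 in the LOF mutant (8.3%). A single call appeared when the GOF mutants were set against the LOF mutant: WHSC1 was 1.09 times higher in the mean of Y641F and A677G than in the LOF mutant, in a comparison where 3.81% of all genes were called higher. Between Y641F and A677G 0 members passed, where 0.0841% of all genes did. In bulk RNA, fewer cells with a transcript and less of it per cell cannot be told apart.

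Counts of a library summed to between 32137700 and 44562413, and the 10 enzymes together held 0.102% to 0.117% of them. On the first principal component of log2 CPM (counts scaled to a common library size, after TMM), which held 33.7% of the variance, the 6 GOF libraries scored 5.597 to 17.7 and the other 6 libraries -16.4 to -13.8. Replicate 1 of Y641F had the lowest score of the GOF libraries. EZH2 itself, counted as the sum of the cell's own and the introduced transcript, which cannot be told apart here, was at 158 ± 4.32 CPM (SD, n = 3) in WT and was higher in each mutant, by 0.46 in Y641F, 0.13 in A677G and 0.40 in the LOF mutant on the log2 scale (adjusted p = 1.6e-10, 0.029 and 1.2e-07, edgeR). The A677G value lost its call with upper-quartile factors (0.11, adjusted p = 0.077), with library totals (0.13, adjusted p = 0.063), and without WT replicate 1 or 3 or A677G replicate 1 or 3 (0.096 to 0.13, adjusted p = 0.10 to 0.23). The identity of the cells was checked with 8 genes usually detected in HEK293T, of which VIM, CDH2, NEFL, NEFM, INA, KRT18 and KRT8 had counts in every library and PAX2, at low counts in the other lines, was at 0 in the A677G libraries. Of 4 endothelial and fibroblast markers COL1A1 and COL3A1 had values, at 2.69 to 11.6 CPM. KRT8, at 3.37 to 5.35 CPM, lay within that range, so the presence of counts alone does not separate the 2 lists. Single markers moved in different directions. NEFL was at 133 ± 4.68 CPM (SD, n = 3) in WT, 79.0 ± 4.29 in Y641F, 73.1 ± 3.99 in A677G and 115 ± 4.85 in the LOF mutant, while CDH2 was at 117 ± 1.69, 130.3 ± 7.26, 133 ± 3.51 and 115 ± 6.07 CPM. COL3A1 was at 3.52 ± 0.842, 8.84 ± 2.39, 6.64 ± 0.411 and 4.87 ± 0.627 CPM, and COL1A1 at 7.32 ± 0.602, 7.32 ± 2.08, 5.83 ± 0.473 and 6.91 ± 1.2 CPM. Their part in the members' values was not tested.

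The 10 genes are large. Their canonical transcripts had a median length of 9.78 kb, against 3.27 kb over the 14081 genes with a canonical transcript in GENCODE 44, and their median span on the genome was 129 kb against 32.9 kb. On GRCh38 the demethylase genes lie at chrX:44873188-45112779 on the plus strand (KDM6A, ENSG00000147050.18, 30 exons) and chr17:7834217-7854796 on the plus strand (KDM6B, ENSG00000132510.11, 24 exons). KMT2A lies at chr11:118436456-118526832 on the plus strand, KMT2C at chr7:152134922-152436644 on the minus strand and KMT2D at chr12:49018975-49060794 on the minus strand. NSD1 lies at chr5:177131830-177300213 on the plus strand, WHSC1 at chr4:1871393-1982207 on the plus strand and SETD2 at chr3:47016428-47164113 on the minus strand. CREBBP lies at chr16:3725054-3880713 on the minus strand and EP300 at chr22:41092592-41180077 on the plus strand. Counts of a gene cover the reads assigned to its transcripts. KMT2C has pseudogene copies on chromosomes 1 and 2 that had no row of their own, so its counts may hold or lose shared reads. EP300-AS1, an antisense RNA that overlaps the last part of EP300, had a row with 197 to 302 counts per library. The libraries were stranded, but whether the counting used strand is not given in the sources used here, so reads of this overlap may have gone to either gene.

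The promoter windows used for these genes, 1 per gene, were rich in G and C, apart from that of NSD1. In the RefSeq windows from 250 bases before to 50 after the start (GRCh38.p14), which were found for all 10 members and for 11060 genes of the table, the members had a median GC content of 70.3% against 65.7%. The GC box GGGCGG, searched on both strands, was in 9 of the 10 member windows and in 70.5% of all windows. TATAAA was in 0 of 10 and 5.59%, and CCAAT in 2 of 10 and 36.8%. The ETS-like word CCGGAAG was in 0 of 10 and 18.6%, an NRF1-like motif in 0 of 10 and 11.3%, and a YY1-like motif in 1 of 10, CREBBP, and 3.16%. The NSD1 window stood apart, with 52.3% GC and 7 CpG dinucleotides, and 7.58% of the genes had a window with fewer. It describes 1 annotated start, and other starts of these genes were not examined. WHSC1 and NSD1, the most abundant enzymes of the set, are relatives of each other with upstream regions that differ in GC content. KDM6A and KDM6B are the pair of H3K27 demethylases, with very different levels. The 250 bases upstream of the RefSeq start are shown for WHSC1, NSD1, KDM6A and KDM6B. They lie at chr4:1871143-1871392, chr5:177131548-177131797, chrX:44872938-44873187 and chr17:7833967-7834216, all on the plus strand, and are written 5′ to 3′ with GC boxes of either strand in capitals.
WHSC1: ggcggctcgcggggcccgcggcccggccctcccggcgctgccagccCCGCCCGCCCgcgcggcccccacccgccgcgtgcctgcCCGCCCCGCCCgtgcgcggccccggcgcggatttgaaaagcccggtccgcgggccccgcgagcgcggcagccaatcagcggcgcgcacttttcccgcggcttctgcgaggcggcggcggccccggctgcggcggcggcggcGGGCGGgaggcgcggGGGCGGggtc
NSD1: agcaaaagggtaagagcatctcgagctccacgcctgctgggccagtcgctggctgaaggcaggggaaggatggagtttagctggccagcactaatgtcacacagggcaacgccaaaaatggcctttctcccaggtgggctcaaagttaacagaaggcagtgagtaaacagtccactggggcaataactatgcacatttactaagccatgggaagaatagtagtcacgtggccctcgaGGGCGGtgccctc
KDM6A: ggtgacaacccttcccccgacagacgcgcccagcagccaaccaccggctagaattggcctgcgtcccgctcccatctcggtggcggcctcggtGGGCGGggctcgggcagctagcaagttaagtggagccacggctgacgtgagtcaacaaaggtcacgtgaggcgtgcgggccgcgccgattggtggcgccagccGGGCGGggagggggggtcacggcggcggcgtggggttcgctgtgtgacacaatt
KDM6B: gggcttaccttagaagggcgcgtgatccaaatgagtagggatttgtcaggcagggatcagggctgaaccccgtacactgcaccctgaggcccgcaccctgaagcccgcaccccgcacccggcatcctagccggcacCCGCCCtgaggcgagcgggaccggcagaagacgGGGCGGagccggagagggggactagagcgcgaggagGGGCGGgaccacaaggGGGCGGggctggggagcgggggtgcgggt
The WHSC1 sequence held 6 GC boxes and 50 CpG dinucleotides at 86% GC. The NSD1 sequence held 1 GC box and 7 CpG dinucleotides at 54.4% GC. The sequences of KDM6A and KDM6B held 2 and 4 GC boxes and 27 and 21 CpG dinucleotides, at 69.2% and 70.4% GC. A match here is a description of the letters and not of a bound site.

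Levels between genes were compared as CPM per kb of canonical transcript, averaged over the 12 libraries. The H3K36 methyltransferases led, with WHSC1 at 28.7 ± 1.13 (SD over 12 libraries), NSD1 at 25.2 ± 0.759 and SETD2 at 12.2 ± 0.557. KDM6A at 9.69 ± 0.448 and EP300 at 9.03 ± 0.468 followed. KMT2C was at 6.49 ± 0.288, CREBBP at 6.45 ± 0.417 and KMT2A at 5.48 ± 0.327 CPM per kb. KMT2D at 2.12 ± 0.187 and KDM6B at 0.681 ± 0.101 were the lowest. The order held in all 12 libraries for 7 of the 9 neighbouring pairs. KDM6A was above EP300 in 11 of 12 libraries, and KMT2C was above CREBBP in 5 of 12, so neither pair was ordered beyond its spread. The ranges of CREBBP and KMT2A over libraries overlapped, although CREBBP was the higher in every library. The lengths are those of canonical transcripts, and use of other transcripts was not measured.

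**Figure D1:**
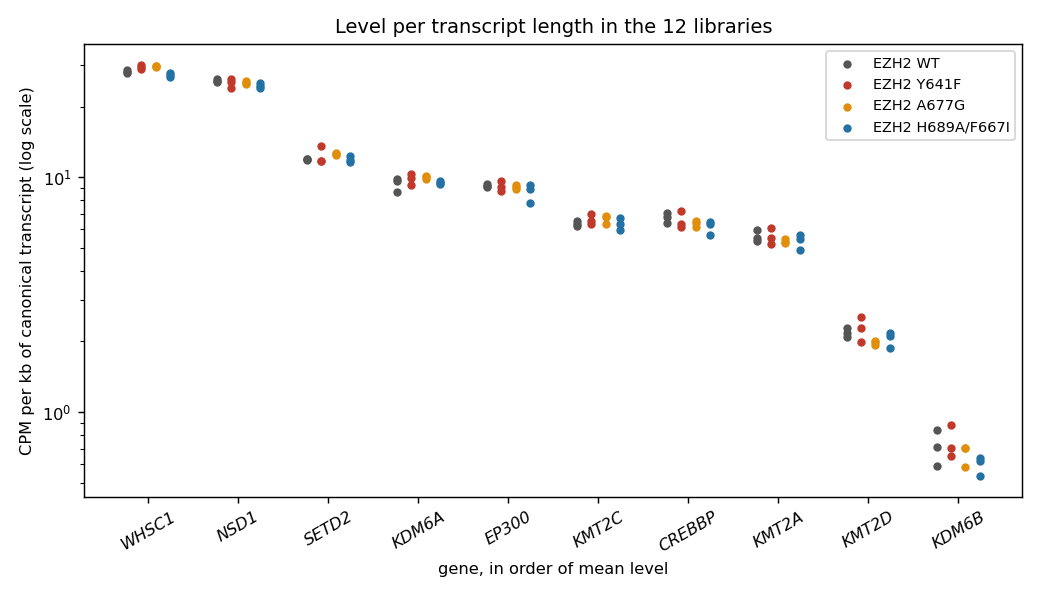
CPM per kb of canonical transcript (log axis) of the 10 enzymes, ordered by their mean, with 1 point per library and 1 colour per EZH2 line. The lines lie close together within each gene, while the genes span from 0.535 (KDM6B) to 30.2 (WHSC1) CPM per kb.

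The H3K27 demethylases differed widely from each other in level. KDM6A differed little between lines, while the error of KDM6B was too wide to tell whether it did. KDM6A had 52.9, 58.5 and 60.2 CPM in the replicates of WT, 56.4, 60.5 and 62.9 in Y641F, 60.1, 60.9 and 62.0 in A677G and 59.1, 57.3 and 57.6 in the LOF mutant. The first WT library was the lowest of the 12, and every mutant overlapped with WT. Against WT, its log2 fold change was 0.068 ± 0.050 (SE) in Y641F, 0.093 ± 0.050 in A677G and 0.021 ± 0.051 in the LOF mutant (adjusted p = 0.51, 0.31 and 0.95, edgeR).

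KDM6B had 4.79, 5.67 and 3.98 CPM in WT, 5.92, 4.75 and 4.40 in Y641F, 4.76, 3.93 and 4.72 in A677G and 3.60, 4.28 and 4.19 in the LOF mutant. It had the fewest counts of the set, 132 to 249 per library, and its libraries varied by 13.2% within a line (mean coefficient of variation) where counting error alone gives 7.52%. Its log2 fold change was 0.058 ± 0.15 (SE) in Y641F, -0.11 ± 0.15 in A677G and -0.26 ± 0.16 in the LOF mutant (adjusted p = 0.90, 0.75 and 0.69, edgeR). The 95% interval of the last value ran from -0.58 to 0.051, so that a fall to 0.669 of the WT level was within the error. Per kb, KDM6A stood 10.5 to 18.1 times above KDM6B in the 12 libraries. The mean ratio was 13.4 ± 2.86 (SD, n = 3) in WT, 13.5 ± 2.69 in Y641F, 15.2 ± 1.68 in A677G and 16.0 ± 1.82 in the LOF mutant.

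Among the H3K4 methyltransferases, KMT2D gave the values farthest from WT. It had 44.8, 43.2 and 47.1 CPM in WT, 52.5, 41.1 and 47.3 in Y641F, 39.9, 40.9 and 41.6 in A677G and 38.7, 43.5 and 44.8 in the LOF mutant. All A677G libraries lay below all WT libraries, as 14.7% of all genes did in that comparison, whereas Y641F held both a library above and a library below the WT range. In A677G the log2 fold change was -0.14 ± 0.064 (SE), a level of 0.906 times WT, which did not pass (adjusted p = 0.19, edgeR). Y641F gave 0.063 ± 0.064 and the LOF mutant -0.090 ± 0.065 (adjusted p = 0.66 and 0.78, edgeR). Without replicate 1 of Y641F, the library that stood apart in the principal components, the Y641F value was -0.025.

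KMT2A had 92.0, 88.9 and 98.7 CPM in WT, 101.5, 86.5 and 91.6 in Y641F, 90.9, 87.2 and 88.2 in A677G and 81.1, 91.1 and 94.0 in the LOF mutant. The highest and the lowest level both came from a first replicate, that of Y641F and that of the LOF mutant, and all lines overlapped. The log2 fold changes against WT were 0.0011 ± 0.052 (SE), -0.069 ± 0.052 and -0.071 ± 0.052 in Y641F, A677G and the LOF mutant (adjusted p = 0.996, 0.51 and 0.78, edgeR). KMT2C had 106.6, 104.9 and 110.1 CPM in WT, 118, 107 and 110.1 in Y641F, 114, 116 and 107 in A677G and 101.1, 107 and 113 in the LOF mutant. Again no line separated from WT. Its log2 fold changes were 0.058 ± 0.044, 0.067 ± 0.044 and -0.0054 ± 0.045 (adjusted p = 0.53, 0.44 and 0.99, edgeR). KMT2C and KMT2D work in similar complexes. The ratio of KMT2C to KMT2D per kb was 2.92 ± 0.0557 (SD, n = 3) in WT and 2.93 ± 0.229 in Y641F. It was 3.37 ± 0.190 in A677G and 3.09 ± 0.0997 in the LOF mutant. The A677G ratios of 3.15 to 3.501 lay above the WT ratios of 2.86 to 2.97. The ratio was not tested, and it holds the KMT2D values given above, so it is not a separate difference.

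**Figure D2:**
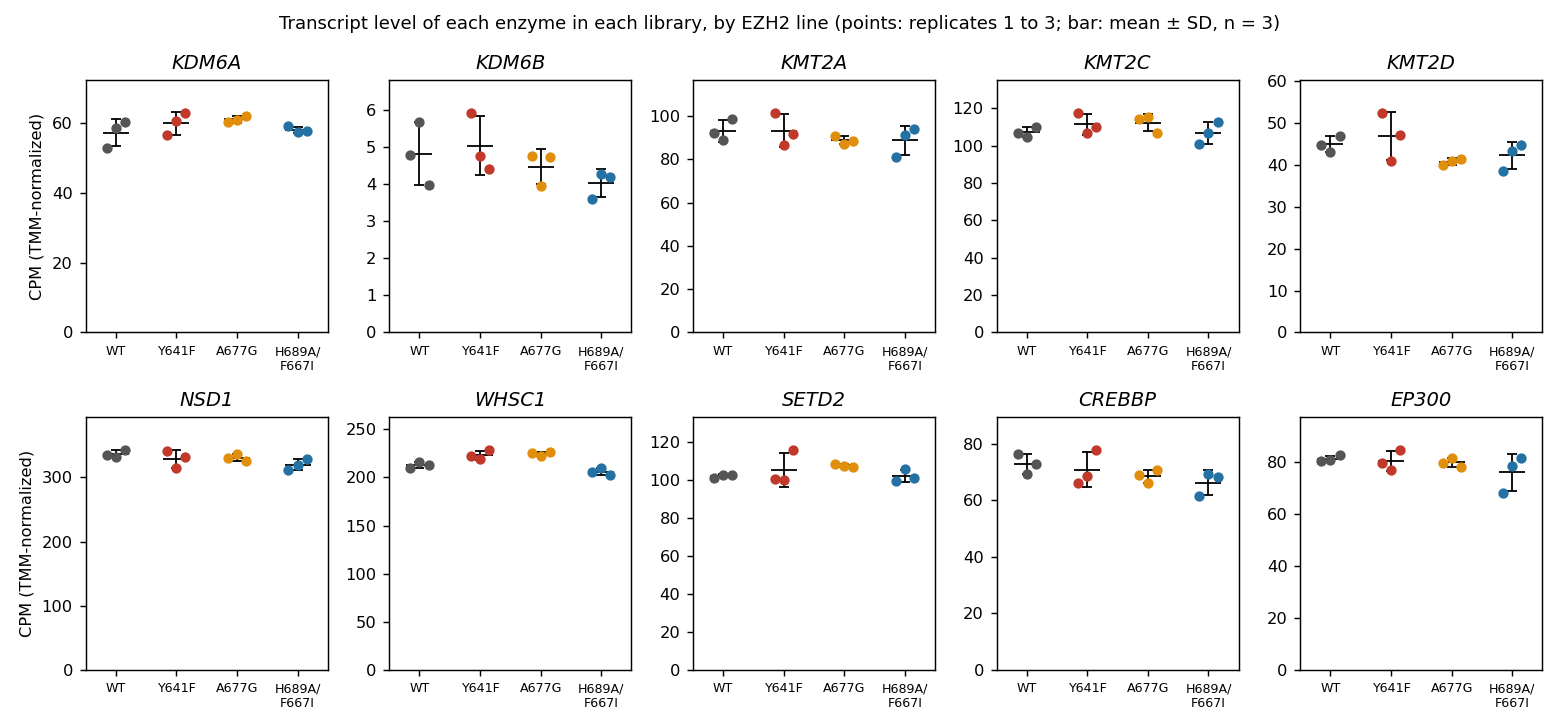
CPM (y axes, from 0) of each enzyme in each EZH2 line, with points for replicates 1 to 3 from left to right and bars for the mean ± SD (n = 3). The replicates of most genes overlap across lines; WHSC1 in the GOF mutants, at 219 to 229 CPM, lies above WT and the LOF mutant.

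Of the H3K36 methyltransferases, WHSC1 was the enzyme with the tightest replicates, varying by 1.60% within a line where counting error gives 1.09%. It had 209.5, 216 and 213 CPM in WT, 222, 219 and 229 in Y641F, 226, 222 and 226 in A677G and 206, 209.7 and 203 in the LOF mutant. Every GOF library was above every WT and every LOF library, and WT and the LOF mutant overlapped. Libraries that did not overlap with WT and were higher were found for 9.28% of all genes in Y641F and 12.5% in A677G. Against WT the log2 fold changes were 0.068 ± 0.035 (SE) in Y641F, 0.076 ± 0.035 in A677G and -0.048 ± 0.035 in the LOF mutant, and none passed (adjusted p = 0.30, 0.20 and 0.78, edgeR). These 3 comparisons share the WT libraries.

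NSD1 had 335, 332 and 343 CPM in WT, 341, 314 and 332 in Y641F, 331, 337 and 325 in A677G and 312, 319 and 329 in the LOF mutant. The 3 LOF libraries lay below the WT libraries, as 7.14% of all genes did. The log2 fold change in the LOF mutant was -0.074 ± 0.036 (SE), a level of 0.9501 times WT, and did not pass (adjusted p = 0.60, edgeR). In Y641F and A677G it was -0.033 ± 0.036 and -0.025 ± 0.036 (adjusted p = 0.69 and 0.77, edgeR).

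SETD2 had 101.2, 102.7 and 102.5 CPM in WT, 100.3, 99.9 and 116 in Y641F, 109, 108 and 107 in A677G and 99.6, 106 and 101.1 in the LOF mutant. The A677G libraries were above those of WT, as 12.5% of all genes were, and 1 Y641F library, replicate 3, was the highest of all. The log2 fold changes were 0.044 ± 0.045 (SE), 0.075 ± 0.045 and -0.00063 ± 0.046 in Y641F, A677G and the LOF mutant (adjusted p = 0.67, 0.38 and 0.999, edgeR). The ratio of WHSC1 to NSD1 per kb, the H3K36me2 enzymes, was 1.09 ± 0.0279 (SD, n = 3) in WT, 1.17 ± 0.0424 in Y641F, 1.17 ± 0.0308 in A677G and 1.11 ± 0.0426 in the LOF mutant.

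The H3K27 acetyltransferases were below the WT level in the fitted values of all mutants, without a call, and in Y641F the sign turned on single libraries. CREBBP had 76.4, 69.2 and 72.9 CPM in WT, 66.02, 68.6 and 77.8 in Y641F, 68.9, 66.01 and 70.6 in A677G and 61.4, 69.4 and 68.1 in the LOF mutant. LOF replicates 1 and 3 lay below every WT library, and replicate 2 was within the WT range. The log2 fold changes were -0.040 ± 0.054 (SE), -0.089 ± 0.054 and -0.14 ± 0.054 (adjusted p = 0.76, 0.38 and 0.45, edgeR). The LOF value, with an interval of -0.25 to -0.025, had the smallest unadjusted p of the members in that comparison (0.017), where 8.3% of all genes were under 0.05.

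EP300 had 80.2, 80.5 and 82.5 CPM in WT, 79.5, 77.0 and 84.5 in Y641F, 79.6, 81.5 and 78.1 in A677G and 67.9, 78.4 and 81.5 in the LOF mutant. Apart from LOF replicate 1, all libraries lay between 77.0 and 84.5. The log2 fold changes were -0.012 ± 0.050 (SE), -0.023 ± 0.050 and -0.094 ± 0.050 in Y641F, A677G and the LOF mutant (adjusted p = 0.94, 0.86 and 0.65, edgeR). Without LOF replicate 1 the last value was -0.022. EP300 stood above CREBBP per kb in every library, by 1.29 to 1.52 times, and the mean ratio was 1.37 ± 0.0719 (SD, n = 3) in WT, 1.40 ± 0.0746 in Y641F, 1.43 ± 0.0798 in A677G and 1.41 ± 0.0572 in the LOF mutant.

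The intervals were narrow for all enzymes but KDM6B. They may measure only the spread between these libraries, so they do not bound the effect of a mutation. Each interval covers 1 gene in 1 comparison, and together they set no joint bound. The spread behind an interval was estimated over all 4 lines together. Replicate pairs differed most in Y641F, with a chi-square per gene of 10.3 to 14.8 against 3.33 to 7.09 in the other lines. The Y641F intervals may therefore understate the spread of that line. Of the 30 intervals (95%) of log2 fold changes of members against WT, 24 lay within 0.2 of 0 on either side. Leaving out KDM6B, 26 of 27 lay within 0.25, with limits of 0.828 and 1.145 times the WT level over all 27. With KDM6B the limits were 0.669 and 1.29. The median of the 10 log2 fold changes was 0.051 in Y641F, -0.024 in A677G and -0.072 in the LOF mutant, against 0.0025, 0.0045 and 0.0024 over all genes tested. Members above 0 numbered 7 of 10 in Y641F, 4 of 10 in A677G and 1 of 10 in the LOF mutant, where 51.0%, 51.7% and 51.2% of all genes were above 0.

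**Figure D3:**
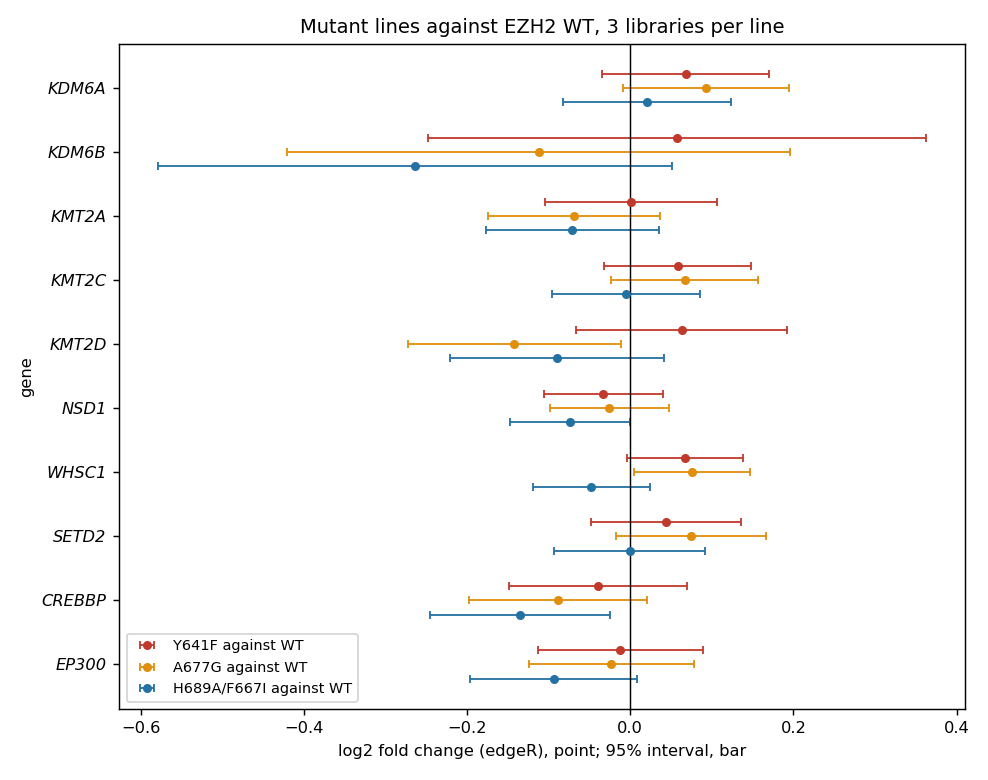
Log2 fold change (x axis, point) with its 95% interval (bar) of each enzyme in Y641F (red), A677G (orange) and EZH2 H689A/F667I (blue) against WT, edgeR, 3 libraries per line. Most intervals include 0, and those of KDM6B, from -0.58 to 0.36 over the lines, are the widest.

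The low values in the LOF mutant rested in part on 1 library. In LOF replicate 1 the members had a median of -0.094 from their line mean on the log2 scale and only 1 of 10 was above it, while the median over all genes was -6e-05. In replicates 2 and 3 of the LOF mutant the median member was 0.041 and 0.052 above the line mean. That mean includes replicate 1, so these values are not independent of it. Without replicate 1 the median log2 fold change of the members against WT was -0.027, with 7 of 10 below 0. With any other WT or LOF library left out it was -0.11 to -0.052, with 7 to 10 of 10 below 0. It was -0.063 with 7 of 10 below 0 after removal of each library's trend with transcript length, and -0.078 with 9 of 10 after removal of the trend with GC content. Across 13920 genes, log2 fold changes in the LOF mutant had a Spearman correlation of -0.092 with transcript length and of -0.096 with GC content, a description over genes that share the same libraries. The part of library quality or transcript length in the members' values was not tested.

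Replicate 1 of Y641F was high for KDM6B and the H3K4 methyltransferases, though not for the members as a whole. It held the highest KDM6B, KMT2A, KMT2C and KMT2D levels of all 12 libraries. Without it the median log2 fold change of the members in Y641F was 0.0022, with 5 of 10 above 0, and KMT2A, KMT2D and KDM6B were at -0.065, -0.025 and -0.079. WHSC1 was at 0.071 and SETD2 at 0.079 without it. The count of members passing remained 0. Y641F replicate 2 lay on the low side, with a median of -0.064 from the line mean and 1 of 10 members above it. In replicates 1 and 3 the median was 0.023 and 0.025, with 5 and 7 of 10 above. Without replicate 2, EP300 and NSD1 in Y641F against WT changed sign, to 0.019 and 0.00080.

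**Figure D4:**
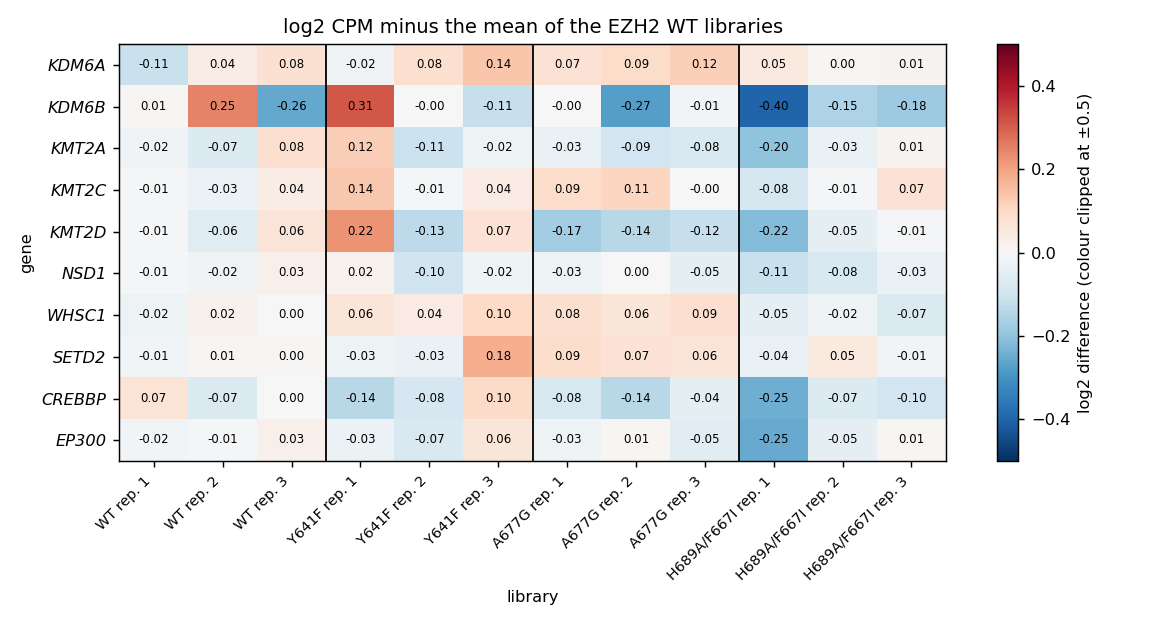
Log2 CPM of each enzyme (rows) in each library (columns) minus the mean of the WT libraries, with the value written in each cell and the colour running from -0.5 (blue) to 0.5 (red). LOF replicate 1 is blue for 9 of the 10 enzymes, and WHSC1 is red in all 6 GOF libraries.

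When the GOF mutants were set against the LOF mutant, WHSC1 was the member that passed. Its log2 fold change for the mean of Y641F and A677G against the LOF mutant was 0.12 ± 0.031 (SE, interval 0.057 to 0.18), or 1.09 times, with an adjusted p = 0.0060 by edgeR. The 6 GOF libraries, at 219 to 229 CPM, were all above the 3 LOF libraries, at 203 to 209.7 CPM, as 5.16% of all genes were. In this comparison 12.6% of all genes passed and 3.81% passed as higher, so 1 of 10 members is near the background. WHSC1 passed under all 24 alternatives that gave a value, with a log2 fold change between 0.10 and 0.13. The other 9 members had values between 0.037 (KMT2A) and 0.24 (KDM6B) and did not pass, with adjusted p-values from 0.29 to 0.69. Their median with WHSC1 was 0.064, against 0.0039 over all genes, and all 10 were above 0, as 51.6% of all genes were. Without LOF replicate 1, 8 of 10 were above 0, with a median of 0.031.

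Between the GOF mutants, KMT2D differed most. It was 0.21 ± 0.064 (SE) higher on the log2 scale in Y641F than in A677G, with an unadjusted p = 0.0028 and an adjusted p = 0.42 (edgeR), where 6.91% of all genes had an unadjusted p under 0.05. The lines overlapped, since Y641F replicate 2 at 41.1 CPM was within the A677G range of 39.9 to 41.6. The value turned on single Y641F libraries. Without replicate 2 it was 0.29 and passed (adjusted p = 0.017), and without replicate 1 it was 0.12 (adjusted p = 0.90). The other 9 members differed by -0.030 to 0.17, and their adjusted p-values were 0.85 or more.

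Genes that work with or beside these enzymes were set against the share over all genes in the same way. Of 40 other genes of the pathway, in 8 lists of methyltransferases, COMPASS subunits, demethylases, acetyltransferases, deacetylases and readers, all were tested. In Y641F 1 of 40 was higher than in WT and 0 were lower, where 2.09% and 5.59% of all genes were. In A677G and in the LOF mutant 0 of 40 passed, where 8.55% and 0.301% of all genes did, and the exact test, DESeq2 and voom also gave 0. At an unadjusted p under 0.05 there were 4 of 40 in each, against 20.4% of all genes in A677G and 8.3% in the LOF mutant. The medians of the 40 were 0.011, 0.020 and -0.043 in Y641F, A677G and the LOF mutant, against 0.0025, 0.0045 and 0.0024 over all genes. In the LOF mutant 33 of 40 were below 0, as 48.8% of all genes were. Without LOF replicate 1, 34 of 40 were below 0, with a median of -0.031. These genes share the same libraries, and the part of transcript length or GC content in their values was not tested.

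KMT2E, a member of the MLL family without known methyltransferase activity on H3K4, was the gene that rose in Y641F. It had 34.9, 34.8 and 32.8 CPM in WT, 39.7, 39.3 and 39.0 in Y641F, 36.8, 38.0 and 39.0 in A677G and 33.7, 34.8 and 33.1 in the LOF mutant. All GOF libraries were above all WT and LOF libraries. Of all genes, 9.28% in Y641F and 12.5% in A677G were higher than WT without overlap, and 5.16% were so in the GOF mutants against the LOF mutant. The log2 fold change in Y641F was 0.20 ± 0.054 (SE, adjusted p = 0.013, edgeR), and it did not pass without WT replicate 3 (0.18, adjusted p = 0.073). In A677G it was 0.15 ± 0.054 (adjusted p = 0.085), and in the LOF mutant -0.012 ± 0.055 (adjusted p = 0.98).

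In the GOF mutants against the LOF mutant, 4 of the 40 were higher and 0 lower, where 3.81% and 8.75% of all genes were, and DESeq2 and voom called 5 each. Besides KMT2E (0.19 ± 0.047, adjusted p = 0.0050, edgeR) these were KMT2B, the close relative of KMT2A, the H3K4 demethylase KDM5B, and WHSC1L1 (NSD3), the remaining enzyme of the NSD family, and these 3 are named here after their values were seen. Their log2 fold changes were 0.17 ± 0.059 for KMT2B, 0.13 ± 0.034 for KDM5B and 0.13 ± 0.036 for WHSC1L1 (adjusted p = 0.050, 0.0059 and 0.012, edgeR). For KMT2B the GOF libraries overlapped with WT, at 25.6 to 29.3 CPM against 25.9 to 29.7, and the LOF libraries were lower, at 23.7 to 25.3 CPM. KMT2B passed under 10 of 24 alternatives. It lost its call without any 1 of the LOF libraries, with values of 0.20, 0.18 and 0.15 (adjusted p = 0.076, 0.13 and 0.20) without replicates 1, 2 and 3. WHSC1L1 was at 0.12 without LOF replicate 1 and did not pass (adjusted p = 0.074).

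**Figure D5:**
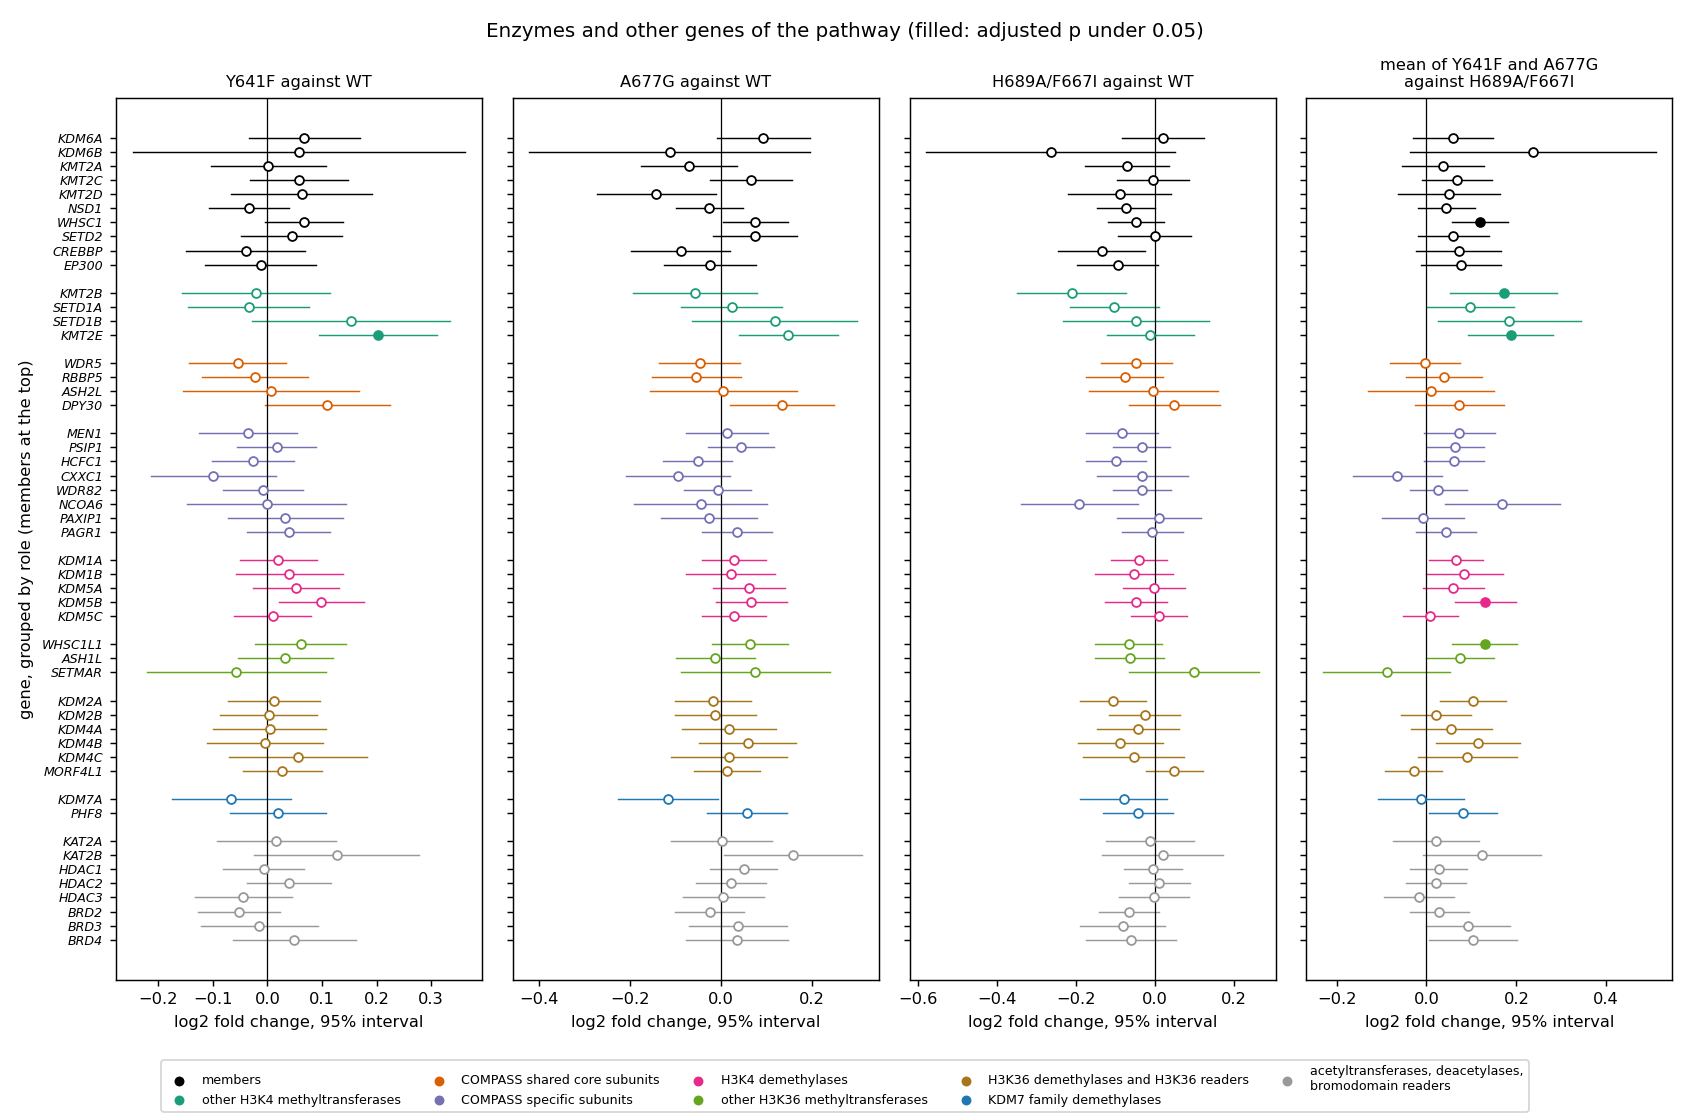
Log2 fold change (x axes, scale differing between panels) with its 95% interval for the 10 enzymes (black, top) and 40 other genes of the pathway by role (colours), with filled points where the adjusted p was under 0.05 by edgeR. Against WT only KMT2E in Y641F is filled, and 5 points are in the GOF mutants against the LOF mutant, WHSC1 among them.

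Across the 12 libraries the correlation of the median pair of enzymes was weak, but some enzymes varied together. The 45 pairs of members had a median Pearson r of log2 CPM of 0.39, from -0.29 (KDM6A with KMT2A) to 0.89 (KMT2A with KMT2D). Within lines, after subtraction of each line's mean, the median was 0.16. The pairs among KMT2A, KMT2C, KMT2D and NSD1 were at 0.77 to 0.91, so these genes varied together among replicates as well. KDM6A with KDM6B was the lowest pair, at -0.51. The gene most like each member over the 12 libraries, where the mean log2 CPM was 1 or more, was UBR4 for both KMT2A (r = 0.91) and KMT2D (r = 0.93), FAT1 for KMT2C (0.92), ZNF678 for KDM6A (0.91) and ACAP3 for KDM6B (0.91). For the H3K36 enzymes it was YAP1 for WHSC1 (0.94), NEU3 for NSD1 (0.91) and KDM3A for SETD2 (0.92), and for the acetyltransferases SETD5 for CREBBP (0.92) and RABL2A for EP300 (0.94). Each was chosen as the highest of all genes tested, and the points share libraries, depth and base composition, so these values are a description.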

How the data were processed

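RNA was measured in 12 libraries of HEK293T, made with a stranded poly(A) kit. The authors trimmed reads with Trim Galore 0.6.5, aligned them with STAR 2.7.9a to GRCh38, estimated transcripts with Salmon 1.2.0, and deposited whole-number counts per gene symbol without normalization. The step from Salmon to counts per symbol and the filter on genes are not given in the sources used here.

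The analysis used edgeR 4.0.16 in R 4.3.3 (TMM, quasi-likelihood test, 12 libraries, 1 coefficient per line) where the study names edgeR's exact test, an alternative here. Of 14438 genes, 175 at 0 in every replicate of a line were left out, none of them a member, a choice made with the counts known; the rest passed filterByExpr. P-values were Benjamini-Hochberg adjusted over the 14263 genes tested and called under 0.05. Log2 CPM used a prior count of 2. With replicate numbers given by the labels, same-numbered libraries did not deviate together, and replicate pairs of a line differed by more than counting error. Of the symbols, 13272 matched GENCODE 44 by name and 809 by an older symbol, and 357 had no match. Promoter windows came from RefSeq, with 1 start per gene.

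Every member was described. EZH2, pathway genes that passed against EZH2 WT (at most 8 per mutant) and the gene most correlated with each member were named by rule. Members and lists were chosen with earlier results of these data known. The alternatives were the exact test, DESeq2 1.42.0, upper-quartile factors, library totals, no filter, a minimum of 10 counts per sample, fits to the compared lines alone, a replicate block, limma 3.58.1 voom with quality weights, GC and length trends removed, and each library left out; keeping the genes at 0 was added after the data were seen. The steps were tested on simulated data. The levels of a further list of markers of other cell types are not reported here.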

Additional observations from a re-analysis of the deposited data

Results flagged for a closer look

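The mean of the GOF mutants EZH2 Y641F and EZH2 A677G differed from the LOF mutant EZH2 H689A/F667I, by a test of the difference itself, in 5 of the 50 genes described, where 12.6% of all genes passed; all 5 were higher, as 3.81% of all genes were. On the log2 scale WHSC1 was 0.12 higher in the GOF mutants (adjusted p = 0.0060, edgeR), KMT2E 0.19 (0.0050), KMT2B 0.17 (0.050), KDM5B 0.13 (0.0059) and WHSC1L1 0.13 (0.012). Against EZH2 WT only KMT2E in EZH2 Y641F passed among these genes.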

How the results depend on the processing

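No member passed against EZH2 WT under any alternative, and WHSC1 passed in the GOF mutants against the LOF mutant under all 24 that gave a value; the exact test gave none for that comparison, since it takes 2 groups. Leaving out 1 library in turn, members passing between EZH2 Y641F and EZH2 A677G ranged from 0 to 1, other pathway genes passing in EZH2 Y641F against EZH2 WT from 0 to 1, and in the GOF mutants against the LOF mutant from 2 to 6. Values near 0 changed sign. In EZH2 Y641F against EZH2 WT, KMT2A was at -0.013 with upper-quartile factors, -0.00134 with at least 10 counts, -0.0095 with voom, -0.0053 with the GC trend removed, -0.0056 with the GC trend removed and the replicate block, and -0.012 with the length trend removed, and KDM6B at -0.025 with voom. In the LOF mutant KMT2C was at 0.000561 with voom and 0.0020 with the length trend removed, and SETD2 at 0.0057 and 0.013. With a library left out, EZH2 Y641F values ranged from -0.11 to 0.0091 for CREBBP, -0.050 to 0.019 for EP300, -0.079 to 0.195 for KDM6B, -0.065 to 0.054 for KMT2A, -0.025 to 0.15 for KMT2D, -0.060 to 0.00080 for NSD1 and -0.030 to 0.082 for SETD2. EZH2 A677G values of KDM6B ranged from -0.23 to 0.024. LOF values ranged from -0.037 to 0.058 for KDM6A, -0.048 to 0.030 for KMT2C and -0.029 to 0.015 for SETD2, and GOF values against the LOF mutant from -0.022 to 0.081 for KMT2A and -0.0082 to 0.096 for KMT2D. The causes were not tested.

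The background counts moved most where few genes passed. In the LOF mutant 43 genes passed, 76 by the exact test, 63 by DESeq2, 86 with only the compared lines, 99 with voom, 169 with the genes at 0 kept, with or without the filter, and 11 to 65 with a library left out; 53.5% of the 43 were lower, 64.5% with library totals, 82.3% with the genes at 0 kept, and 35.3% to 61.1% with a library left out. Between the GOF mutants 12 passed, 23 by the exact test, 19 by DESeq2, 19 with the GC trend removed and the replicate block, 178 with the genes at 0 kept, and 8 to 57 with a library left out; 16.7% of the 12 were lower, 42.1% by DESeq2, 8.43% with the genes at 0 kept, and 10% to 49.1% with a library left out. In EZH2 Y641F 1095 passed, and 703 without EZH2 WT replicate 2.

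Replicate numbers did not pair the libraries: same-numbered libraries deviated from their line means with r from -0.056 to 0.050, and 3 of 12 libraries correlated best with their own number. With the replicate block, members passing stayed at 0 against EZH2 WT and 1 in the GOF mutants against the LOF mutant, and 1108 genes passed in EZH2 Y641F. KDM6B, at 132 to 249 counts, varied by 13.2% within a line where counting error alone gives 7.52%, and the part of depth was not tested.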
